A study of Mus musculus with 8 samples.

Results

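The proneural basic helix-loop-helix (bHLH) transcription factors *Neurog1*, *Neurog2*, *Neurog3*, *Neurod1*, *Neurod4*, *Nhlh1*, *Atoh1*, *Olig1* and *Olig2* were followed as wild-type and *Pcgf5*-/- mouse embryonic stem cells (mESCs) were cultured toward neural cells. These 9 genes were selected by symbol from the 24849 genes listed in each library. The cells were of the MPI-II line, strain background 129S2/SvPas, kept on feeder cells with serum, leukemia inhibitory factor and 2 inhibitors (CHIR99021 and PD0325901). RNA was sequenced at day 0, before differentiation, and after culture to day 6 in the serum-free N2B27 medium, which allows neural differentiation. There were 2 libraries for each of 4 conditions, wild type (WT) and *Pcgf5*-/- at each day. The *Pcgf5*-/- cells carried TALEN-targeted alleles of *Pcgf5*, a subunit of a variant Polycomb repressive complex 1, and the number of clones behind these libraries is not given in the sources used here. The study describes the day 6 libraries as separate biological samples. The labels do not say whether they came from separate cultures, so p-values measure the spread between these libraries.

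Proneural bHLH proteins bind the E-box, a short DNA motif, as dimers with broadly expressed E-proteins, and they switch on genes of neuronal commitment. Neurogenins act early in dividing progenitors, NeuroD-type factors and Nhlh1 follow in newly committed neurons, and Atoh1 and the Olig proteins specify particular lineages. They are held in check by ID proteins, which take up the E-proteins, and by HES and HEY repressors, many of which lie downstream of Notch.

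*Pcgf5* itself read 5.18 and 3.63 FPKM (fragments per kilobase of transcript, relative to library size) in the WT libraries of day 0, against 1.28 and 1.84 in the knockout. By day 6 the WT libraries had 9.16 and 5.06 and the knockout libraries 0.669 and 0.457, so both knockout libraries lay under both WT libraries on both days. The relative depth of the libraries, worked out from the steps between low FPKM values, lay between 0.99 and 1.29 of that of the first WT day 0 library. Replicates correlated at r = 0.972 to 0.974 across the tested genes, which are not independent replicates. All 8 listed pluripotency markers, such as *Pou5f1* and *Nanog*, were higher in *Pcgf5*-/- cells at day 6 (limma, adjusted p under 0.05). All 8 listed neural progenitor markers, such as *Sox1* and *Pax6*, were lower. Of all tested genes, 9.57% were higher and 7.05% were lower. The progenitor marker *Zic1* was tested only because its WT mean of day 6, where it is high, was over 1 FPKM. The count of progenitor markers is therefore a description. Between the genotypes, the median log2 fold change was 0.41 over chromosome 6 and 0.48 over chromosome 11 at day 0, and 0.37 and 0.38 at day 6, against -0.06 to 0.12 for the other autosomes. Of the 9 bHLH genes, *Atoh1* lies on chromosome 6 and none lies on chromosome 11.

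All 9 genes have their coding sequence in 1 exon, in the GENCODE annotation of mouse build NCBIM37 (mm9, the build of the files). Of all 22238 protein-coding genes, 17.8% have their longest coding sequence in a single exon. *Olig2* and *Olig1* are neighbours on chromosome 16 in the same orientation, with 41091 bases between them, and the other members lie on separate chromosomes except *Neurog3* and *Neurod4*, both on chromosome 10. *Neurog1* (chr13:56351866-56353524, minus strand), *Atoh1* (chr6:64679140-64681227, plus strand) and *Olig1* (chr16:91270014-91272184, plus strand) were annotated as single-exon genes, while the other 6 have a second exon. *Nhlh1* spans chr1:173982423-173987704 and *Neurod1* chr2:79292678-79296908, both on the minus strand.

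The 250 bases before the annotated start were read from the mm9 genome for the 4 genes with the highest FPKM at day 6, because these genes rose together and because members of the family are known to act on each other's promoters. They are given 5′ to 3′ on the strand of the gene, with every match to the E-box CANNTG in capitals. They come from chr13:56353525-56353774 for *Neurog1*, chr1:173987705-173987954 for *Nhlh1*, chr2:79296909-79297158 for *Neurod1* and chr10:129717297-129717546 for *Neurod4*, all on the minus strand.
Neurog1: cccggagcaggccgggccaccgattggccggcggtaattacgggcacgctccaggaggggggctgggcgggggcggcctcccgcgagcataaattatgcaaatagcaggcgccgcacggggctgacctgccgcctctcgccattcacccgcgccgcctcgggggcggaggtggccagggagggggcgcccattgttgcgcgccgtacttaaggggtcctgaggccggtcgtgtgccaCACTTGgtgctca
Nhlh1: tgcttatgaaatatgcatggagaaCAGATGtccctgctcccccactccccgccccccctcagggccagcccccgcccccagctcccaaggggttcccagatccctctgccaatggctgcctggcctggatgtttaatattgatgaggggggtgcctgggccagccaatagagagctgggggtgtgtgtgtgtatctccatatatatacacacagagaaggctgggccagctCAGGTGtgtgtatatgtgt
Neurod1: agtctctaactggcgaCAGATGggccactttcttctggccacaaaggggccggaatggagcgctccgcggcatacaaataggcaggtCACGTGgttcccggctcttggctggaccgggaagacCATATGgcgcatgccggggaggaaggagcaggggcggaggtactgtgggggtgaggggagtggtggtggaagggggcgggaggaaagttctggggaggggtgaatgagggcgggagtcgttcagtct
Neurod4: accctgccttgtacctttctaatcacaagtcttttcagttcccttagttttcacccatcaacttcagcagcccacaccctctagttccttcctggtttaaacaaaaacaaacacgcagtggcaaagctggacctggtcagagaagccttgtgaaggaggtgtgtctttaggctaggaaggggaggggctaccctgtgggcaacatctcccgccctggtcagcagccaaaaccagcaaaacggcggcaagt

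*Neurod1* held 3 E-boxes, of which 1 was the form preferred by Neurogenin and NeuroD proteins (CAGATG, or CATCTG on the other strand), at -234 bases from the start, and 1 was CACGTG. *Nhlh1* held 2, of which 1 was CAGATG, at -226 bases, and *Neurog1* held 1, which was neither of these forms. *Neurod4* held none. CANNTG reads alike on both strands, and the named forms are contained in it. Of 22375 promoters of the same length, 63.5% held at least 1 CANNTG, 10.5% held at least 3, 12.8% held CAGATG or CATCTG and 6.52% held CACGTG. Among the other members, *Neurog3* held 1 E-box (CAGCTG, present in 11.8% of promoters) and *Neurog2*, *Atoh1*, *Olig1* and *Olig2* held none in this window. In all, 4 of the 9 members held an E-box in this window. The same windows differed in CpG content: the observed over expected CpG ratio was 0.87 for *Neurog1* and 0.669 for *Neurod1*, against 0.0965 for *Nhlh1* and 0.244 for *Neurod4*, where the median promoter had 0.496. The genes that reached the highest FPKM at day 6 included both CpG-rich and CpG-poor promoters.

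At day 0 the 9 genes were at or near the limit of detection in both genotypes. *Neurod4* was listed at 0 in all 4 libraries. *Neurod1* was the highest, at 0.318 and 0.317 FPKM in WT and 0.181 and 0.298 FPKM in *Pcgf5*-/- cells, which stood for an estimated 11, 13, 7 and 11 fragments. No other member exceeded 0.189 FPKM, which *Olig1* had in 1 *Pcgf5*-/- library. Summed over the 9 genes, day 0 libraries held 0.613 and 0.716 FPKM in WT and 0.409 and 0.704 FPKM in *Pcgf5*-/- cells, and these ranges overlapped. *Neurod1* and *Atoh1* had both knockout libraries under both WT libraries and *Olig2* had both above, patterns that 13.3% and 34.6% of all tested genes showed at day 0. For these genes they rest on at most 13 fragments in a library.

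At day 6 the sum was 68.4 and 41.1 FPKM in WT and 34.3 and 29.4 FPKM in *Pcgf5*-/- cells, so that the 2 knockout libraries lay under the 2 WT libraries and far above any library of day 0. Several patterns made up this sum, in the plot of FPKM by library: *Neurog1*, *Neurog2*, *Neurod4* and *Nhlh1* had lower values in the knockout, *Neurod1* reached overlapping values in both genotypes, *Olig2* had its higher mean in the knockout, and *Neurog3*, *Atoh1* and *Olig1* stayed under 1 FPKM everywhere. In bulk RNA, fewer expressing cells and less RNA per cell cannot be told apart, and this holds for every value given here.

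**Figure D1:**
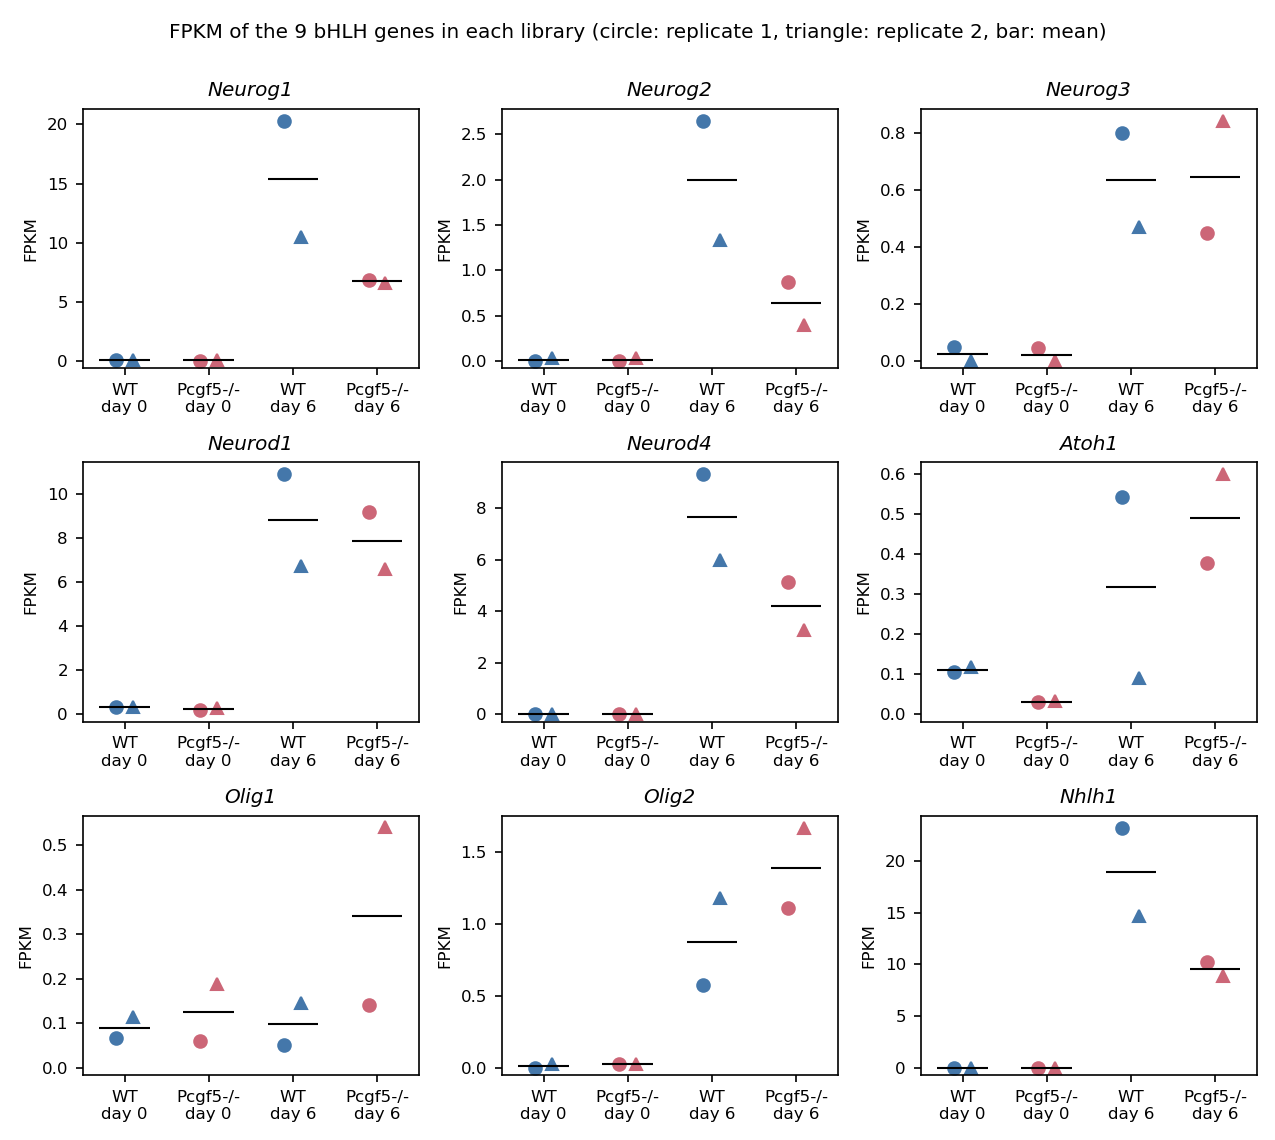
FPKM (linear axis, a scale of its own for each gene) of the 9 bHLH genes in the 8 libraries, with WT in blue, *Pcgf5*-/- in red, replicate 1 as a circle, replicate 2 as a triangle and the mean of the 2 libraries as a bar. *Neurog1*, *Neurog2*, *Neurod4* and *Nhlh1* show both knockout libraries of day 6 under both WT libraries, whereas the genotypes overlap for the other 5 genes at day 6.

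The neurogenins are the determination factors of the family. At day 0, *Neurog1* read 0.045 and 0.114 FPKM in WT and 0.0403 and 0.127 FPKM in *Pcgf5*-/- cells, the equivalent of 1 to 3 fragments. At day 6 it read 20.3 and 10.5 FPKM in WT, and 6.81 and 6.63 FPKM in *Pcgf5*-/- cells. The 2 WT libraries differed by 1.93-fold and the knockout libraries by 1.03-fold, and the lower WT library was still above both knockout libraries. *Neurog2*, which overlaps with *Neurog1* in function in many regions, was less abundant, at 2.65 and 1.34 FPKM in WT and 0.873 and 0.398 FPKM in the knockout at day 6. These values stood for an estimated 104, 47, 32 and 12 fragments, and no library of day 0 held more than 1. The genotypes were again apart, and the *Pcgf5*-/- mean was 0.319 of the WT mean, against 0.436 for *Neurog1*. *Neurog3*, best known as the determination gene of pancreatic endocrine cells, behaved otherwise: at day 6 it read 0.8 and 0.469 FPKM in WT and 0.45 and 0.843 FPKM in *Pcgf5*-/- cells, and the genotypes overlapped. Among the pancreatic endocrine markers *Ins1*, *Gcg* and *Pax4* were listed at 0 in all 8 libraries and *Pdx1* in the 4 WT libraries, with 0.0502 to 0.108 FPKM of *Pdx1* in the 4 *Pcgf5*-/- libraries. At day 6, *Ins2* read 0.188 and 0 FPKM in WT and 0.204 and 0.246 FPKM in *Pcgf5*-/- cells. *Chga*, which other secretory cells also express, had day 6 values of 5.61 and 3.07 FPKM in WT and of 7.74 and 7.02 FPKM in the knockout (log2 fold change 0.69, limma adjusted p = 0.0936). *Pdx1*, *Ins2* and *Chga* were the 3 of the 8 markers with both knockout libraries above both WT libraries at day 6. Of all tested genes 33.4% showed this pattern at day 6, and no library held more than 0.246 FPKM of *Pdx1* or *Ins2*. *Sst*, which neurons also express, rose in both genotypes and was lower in the knockout at day 6 (log2 fold change -1.24, limma adjusted p = 0.0283).

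*Neurod1*, *Neurod4* and *Nhlh1* mark cells leaving the progenitor state. *Nhlh1* was the most abundant member at day 6, with 23.2 and 14.7 FPKM in WT and 10.2 and 8.89 FPKM in *Pcgf5*-/- cells. No library of day 0 held more than 0.029 FPKM of it, or 1 fragment, and at day 6 both knockout libraries lay under both WT libraries. *Neurod4* went from 0 in all libraries of day 0 to 9.31 and 5.99 FPKM in WT and 5.15 and 3.26 FPKM in *Pcgf5*-/- cells. Its genotypes were apart too, by a narrow margin of 5.15 against 5.99 FPKM. *Neurod1* read 10.9 and 6.71 FPKM in WT and 9.18 and 6.59 FPKM in the knockout at day 6. Here the genotypes overlapped, with the first knockout library above the second WT library.

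The lineage factors stayed low. *Olig2*, needed for motor neurons and oligodendrocytes, read 0.575 and 1.18 FPKM in WT and 1.11 and 1.67 FPKM in the knockout at day 6, an estimated 25, 46, 45 and 56 fragments. The genotypes overlapped, since the lower knockout library lay under the higher WT library, and at day 0 no library had more than 1 fragment. Its neighbour *Olig1* read 0.0521 and 0.146 FPKM in WT and 0.14 and 0.542 FPKM in the knockout at day 6, not set apart from the 0.0601 to 0.189 FPKM of day 0. *Atoh1*, a factor of cerebellar granule cells and hair cells, read 0.543 and 0.0913 FPKM in WT and 0.378 and 0.601 FPKM in the knockout at day 6. The 2 WT libraries of *Atoh1* differed by 5.95-fold, from an estimated 20 and 3 fragments. At day 0 *Atoh1* had 3 and 4 fragments in WT and 1 and 1 in *Pcgf5*-/- cells, too few to separate the genotypes.

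Ordered by mean FPKM at day 6, WT cells had *Nhlh1* (18.9 ± 6.05, SD, n = 2), *Neurog1* (15.4 ± 6.93), *Neurod1* (8.81 ± 2.97), *Neurod4* (7.65 ± 2.34), *Neurog2* (2 ± 0.925), *Olig2* (0.88 ± 0.431), *Neurog3* (0.635 ± 0.234), *Atoh1* (0.317 ± 0.32) and *Olig1* (0.099 ± 0.0663). The ranges of the 2 libraries overlapped between each gene and the next, except between *Neurod4* and *Neurog2* and between *Neurog2* and *Olig2*. In *Pcgf5*-/- cells the order was *Nhlh1* (9.54 ± 0.921), *Neurod1* (7.89 ± 1.83), *Neurog1* (6.72 ± 0.129), *Neurod4* (4.21 ± 1.33), *Olig2* (1.39 ± 0.4), *Neurog3* (0.646 ± 0.278), *Neurog2* (0.636 ± 0.337), *Atoh1* (0.489 ± 0.157) and *Olig1* (0.341 ± 0.285). *Neurod1* overlapped with both *Nhlh1* and *Neurog1* there, which did not overlap with each other, *Neurod4* and *Olig2* each stood apart from their neighbours, and the 4 lowest genes overlapped. *Neurog1* thus moved from above to below *Neurod1*, and *Neurog2* from above to below *Olig2*, in the mean.

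The balance between members was taken within each library, where it does not depend on depth. The FPKM ratio of *Neurod1* to *Neurog1* was 0.537 and 0.638 in WT and 1.35 and 0.994 in *Pcgf5*-/- cells at day 6. The ratio of *Neurod1* to *Nhlh1* was 0.47 and 0.457 in WT and 0.9 and 0.741 in *Pcgf5*-/- cells. In both ratios the genotypes lay apart, with relatively more *Neurod1* in the knockout. The ratio of *Nhlh1* to *Neurog1*, by contrast, overlapped, at 1.14 and 1.39 in WT and 1.5 and 1.34 in *Pcgf5*-/- cells. The ratio of *Neurog2* to *Neurog1* was 0.13 and 0.128 in WT and 0.128 in the first knockout library, but 0.06 in the second. These pairs were chosen after the values had been seen, and with 2 libraries against 2 the smallest two-sided p of an exact permutation test is 0.333, so the ratios are a description.

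The change over the 6 days was tested with limma on log2(FPKM + 1), in which a fold change of a low gene is smaller than its FPKM ratio. Genes with a mean over 1 FPKM in at least 1 condition were tested, 13214 in all. Of the 9 members, 6 passed this minimum, *Olig2* through its *Pcgf5*-/- mean of day 6 alone and *Neurog2* through its WT mean of day 6 alone. Since these genes were near 0 at day 0 and passed through a mean of day 6, a rise among them was built into the filter, and their counts of rises are given as a description. In WT all 6 rose, where 34.2% of all tested genes were higher at day 6. The log2 fold changes were 4.26 for *Nhlh1* (SE 0.23, limma adjusted p = 9.92e-06), 3.86 for *Neurog1* (SE 0.28, adjusted p = 2.73e-05), 3.09 for *Neurod4* (SE 0.25, adjusted p = 4.81e-05) and 2.86 for *Neurod1* (SE 0.25, adjusted p = 7.15e-05). *Neurog2* followed with 1.53 (SE 0.25, adjusted p = 0.00131) and *Olig2* with 0.87 (SE 0.21, adjusted p = 0.00947). The median of all tested genes was 0.22.

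In *Pcgf5*-/- cells 5 of the 6 rose, where 21.9% of all tested genes were higher at day 6. *Nhlh1* rose by 3.38 on the log2 scale (SE 0.23, limma adjusted p = 0.000109), and *Neurog1* and *Neurod1* each by 2.83 (adjusted p = 0.000369 and 0.00027). *Neurod4* rose by 2.36 (SE 0.25, adjusted p = 0.000537) and *Olig2* by 1.21 (SE 0.21, adjusted p = 0.00435). *Neurog2* had a value of 0.67 (SE 0.25, adjusted p = 0.0672) and was not called, as in 11 of its 17 alternatives. The settings in which it passed included a pseudocount of 0.5 (adjusted p = 0.0345) or 0.1 (adjusted p = 0.00912). They also included a fit of the 4 knockout libraries alone (adjusted p = 0.0392). Over all alternatives the log2 fold change of *Neurog2* ran from 0.45 to 2.61. In the plot of both changes, *Neurod1* lies on the line of equal change. *Neurog3*, under the minimum, had a value of 0.67 in WT and 0.68 in *Pcgf5*-/- cells when every gene was tested (adjusted p = 0.0144 and 0.0239), while *Atoh1* and *Olig1* passed in neither genotype.

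**Figure D2:**
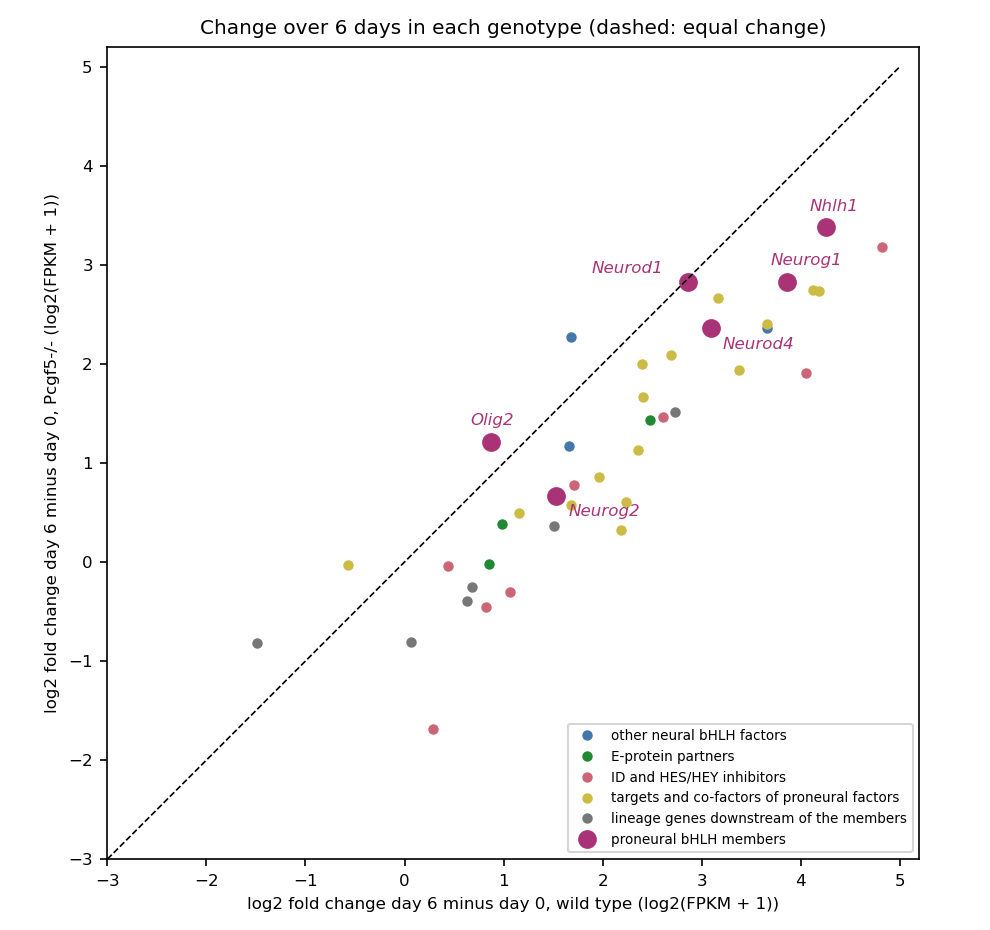
Log2 fold change from day 0 to day 6 on log2(FPKM + 1) in WT (horizontal axis) and *Pcgf5*-/- cells (vertical axis), for the 6 tested proneural bHLH genes (large, named points) and 35 tested partner, inhibitor, target and lineage genes (small points); the dashed line marks equal change. *Neurod1* lies on the line at 2.86 and 2.83, *Olig2* above it at 0.87 and 1.21, and the other 4 members under it.

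Whether the loss of *Pcgf5* changed these genes was asked next. At day 0 limma called 0 of the 6 tested members and 0.333% of all tested genes at an adjusted p of 0.05. An unadjusted p under 0.05 was found for 0 of the 6 and for 2294 of all 13214 tested genes. Their log2 fold changes between the genotypes lay between -0.09 for *Neurod1* and 0.02 for *Olig2*, with 95% intervals that reached from -0.67 to 0.64 at most. At these levels a difference was not detectable.

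At day 6, 3 of the 6 tested members were lower in *Pcgf5*-/- cells and 0 were higher, where 7.05% of all tested genes were lower and 9.57% were higher. *Neurog2* passed the minimum only through its WT mean of day 6, the group where it is high, so the count is a description and is not read against these shares. *Neurog1* had a log2 fold change of -1.02 (SE 0.28, 95% interval -1.66 to -0.38, limma adjusted p = 0.0405). *Nhlh1* had -0.89 (SE 0.23, 95% interval -1.42 to -0.36, adjusted p = 0.0359) and *Neurog2* -0.85 (SE 0.25, 95% interval -1.42 to -0.29, adjusted p = 0.0488). With a minimum of 0.5 FPKM, which *Neurog2* passed in both genotypes at day 6, its adjusted p was 0.0429, and with no minimum 0.0771. In FPKM these were 2.29-fold, 1.98-fold and 3.14-fold lower means. *Neurod4* had -0.73 (SE 0.25, 95% interval -1.31 to -0.15, adjusted p = 0.0822) and was not called, with a mean 1.82-fold lower. *Neurod1* had -0.12 (SE 0.25, adjusted p = 0.777), with a 95% interval of -0.70 to 0.45 that overlaps those of the 3 called genes. *Olig2* had 0.36 (SE 0.21, 95% interval -0.13 to 0.84, adjusted p = 0.284). Of the 9 members, 4 had both knockout libraries under both WT libraries and 0 had both above, where 28.8% of all tested genes had the former pattern and 33.4% the latter.

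The 3 calls stand close to the threshold and rest on few libraries. Leaving out a day 0 library changes the shared variance and the residual degrees of freedom behind them, but not their fold changes. All 3 were lost when any one of 7 libraries was left out, the exception being the second WT library of day 6. Without the first WT library of day 6, which had the highest value of each of them, the log2 fold changes were -0.58 for *Neurog1*, -0.57 for *Nhlh1* and -0.53 for *Neurog2* (limma adjusted p = 0.146, 0.157 and 0.167). Their direction was lower in *Pcgf5*-/- cells under each of the 18 alternatives for *Neurog1* and *Nhlh1* and the 17 for *Neurog2*. Within WT day 6, the first library exceeded the second in 7 of the 9 members, all but *Olig1* and *Olig2*, while 51.4% of all tested genes were higher in it. That library also had more of the summed pluripotency markers (393 against 170 FPKM), of the mesendoderm markers (23.4 against 4.11 FPKM) and of the neuron markers (531 against 374 FPKM), and about the same of the progenitor markers (358 against 369 FPKM). The part of this library's makeup in the values of the members was not tested.

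The difference between the genotypes was compared between the days in the same fit. *Neurog1* had a difference of -1.03 (SE 0.39, limma adjusted p = 0.171), *Nhlh1* of -0.89 (SE 0.33, adjusted p = 0.161) and *Neurog2* of -0.86 (SE 0.35, adjusted p = 0.191). *Neurod4* had -0.73, *Neurod1* -0.03 and *Olig2* 0.34. By limma 0 of the 6 were called, where 1.75% of all tested genes were called lower. An unadjusted p under 0.05 was found for 3 of the 6, and for 3064 of all 13214 tested genes.

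Genes that work with the proneural factors were described from lists made for this comparison, 48 genes of which 35 were tested. At day 6, 20 of the 35 were lower in *Pcgf5*-/- cells and 0 were higher, where 7.05% of all tested genes were lower and 9.57% were higher. Among the 20, *Myt1*, *Cbfa2t3* and *Isl1* passed the minimum only through their WT mean of day 6, the group where they are high. The count is therefore a description and is not read against these shares. The median log2 fold change of the 35 was -0.89, against 0.02 for all tested genes and -0.79 for the 6 members. These medians hold the same genes, and *Neurog2* among the members, so they too are a description. From day 0 to day 6, 28 of the 35 rose in WT and 20 of the 35 in *Pcgf5*-/- cells, where 34.2% and 21.9% of all tested genes were higher. Several of the 35, such as *Hes3*, *Nhlh2* and *Dcx*, were near 0 at day 0 and passed the minimum through a mean of day 6. A rise of such genes was built into the filter, so these counts too are a description. At day 0 limma called 0 of the 35, and 5 had an unadjusted p under 0.05, as had 2294 of all 13214 tested genes. The count at day 6 fell when single libraries were left out, most of all without the first *Pcgf5*-/- library of day 6. It also fell without the first *Pcgf5*-/- library of day 0. A day 0 library enters this comparison only through the shared variance and the residual degrees of freedom.

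**Figure D3:**
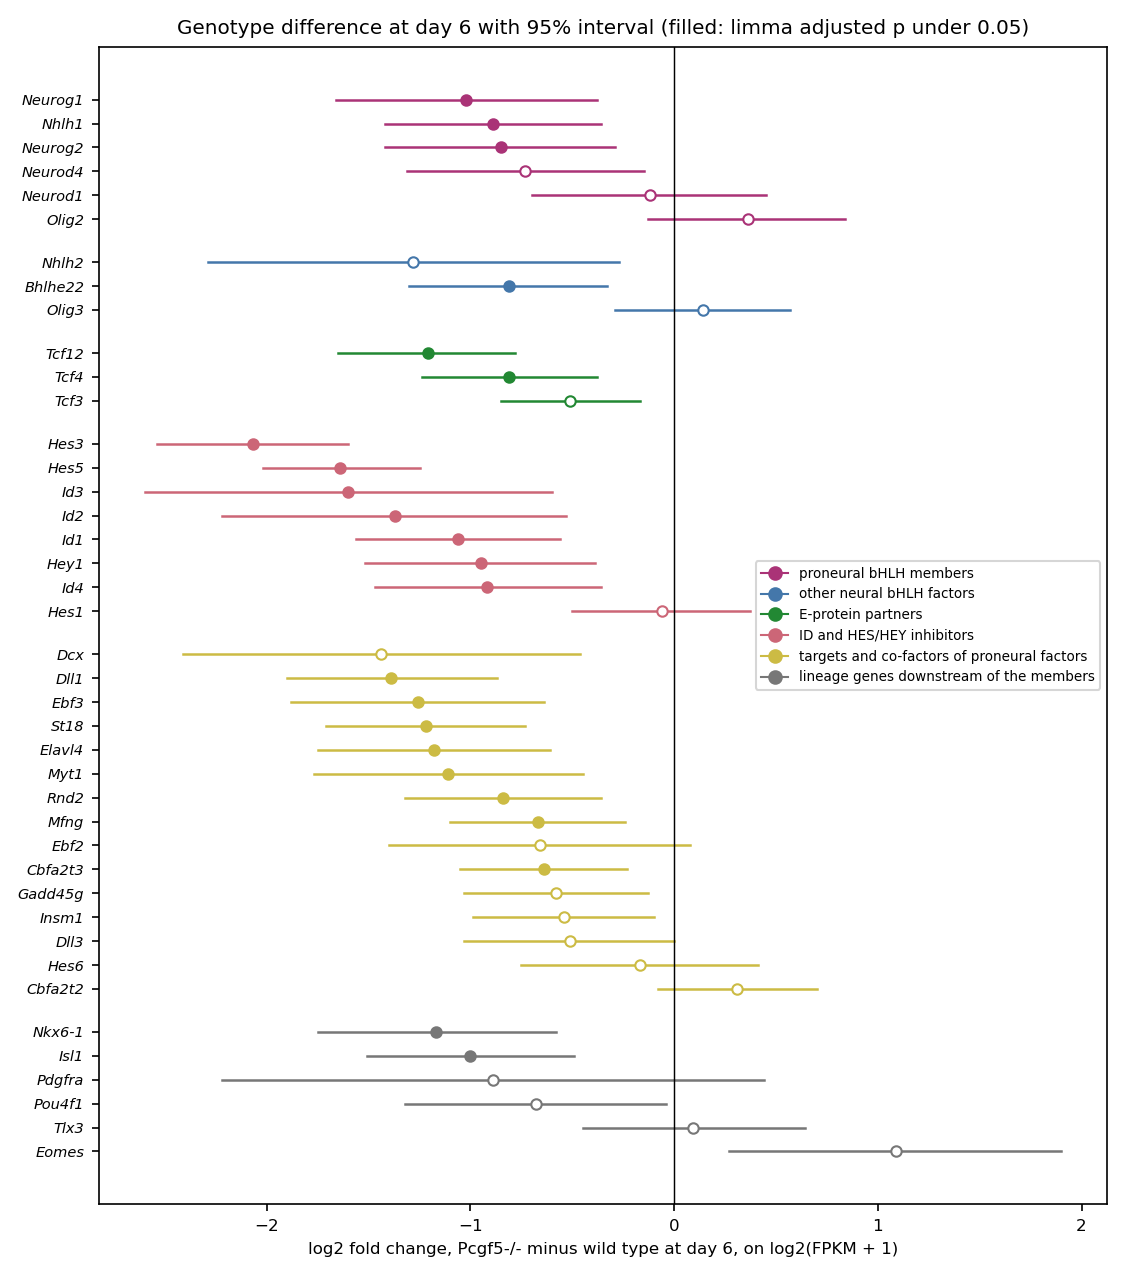
Log2 fold change between *Pcgf5*-/- and WT cells at day 6 on log2(FPKM + 1), with 95% intervals from limma, for the 6 tested proneural bHLH genes and 35 tested related genes grouped by role; filled points have an adjusted p under 0.05. Among the members *Neurog1*, *Nhlh1* and *Neurog2* are filled and *Olig2* is on the side of higher values, and the ID and HES/HEY inhibitors hold the lowest value, -2.07 for *Hes3*.

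Of the other neural bHLH factors described, 1 of 3 tested was lower, *Bhlhe22* with a log2 fold change of -0.81 at day 6 (limma adjusted p = 0.036). *Nhlh2*, the paralogue of *Nhlh1*, had -1.28 but varied 3.33-fold between the WT libraries (adjusted p = 0.0813). *Olig3*, the relative of *Olig1* and *Olig2*, read 4.59 and 5.14 FPKM in WT and 5.37 and 5.55 FPKM in *Pcgf5*-/- cells, a log2 fold change of 0.14 (adjusted p = 0.654).

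The E-proteins, partners of every member, were lower for 2 of 3, *Tcf12* at -1.21 (limma adjusted p = 0.00847) and *Tcf4* at -0.81 (adjusted p = 0.0248), and *Tcf3* had -0.51 (adjusted p = 0.0511). Of the inhibitors, 7 of 8 tested were lower: *Hes3* (-2.07), *Hes5* (-1.64), *Id3* (-1.60), *Id2* (-1.37), *Id1* (-1.06), *Hey1* (-0.95) and *Id4* (-0.92), with adjusted p from 0.00377 to 0.0409. *Hes1* had -0.06 (adjusted p = 0.846). Lower values at day 6 were called for 3 of the 6 tested members, 2 of the 3 E-proteins and 7 of the 8 inhibitors. Of all tested genes, 7.05% were lower. *Neurog2*, among the 3 members, passed the minimum only through its WT mean of day 6, so these counts are a description. *Neurod1*, *Neurod4*, *Olig2*, *Tcf3* and *Hes1* were not called.

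Of 15 genes known as targets or co-factors of proneural proteins, 8 were lower. They included the Notch ligand *Dll1* (-1.39, limma adjusted p = 0.00907), which read 24.5 and 18.8 FPKM in WT and 7.76 and 7.4 FPKM in *Pcgf5*-/- cells, the zinc-finger factors *St18* (-1.22) and *Myt1* (-1.11), *Ebf3* (-1.26), the RNA-binding protein gene *Elavl4* (-1.18), *Rnd2* (-0.84), *Mfng* (-0.67) and *Cbfa2t3* (-0.64). *Dcx*, a microtubule protein of migrating neurons, had the lowest value, -1.44, and was not called (adjusted p = 0.0533). *Cbfa2t2* had the highest, 0.31 (adjusted p = 0.247). Of 6 tested lineage genes, *Nkx6-1* (-1.17) and *Isl1* (adjusted p = 0.0221) were lower, and *Eomes* had 1.09 (adjusted p = 0.0711). No gene of the oligodendrocyte list was called at day 6, 0 of 5 by limma, with none at an unadjusted p under 0.05.

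For each tested member, genes with the most similar log2(FPKM + 1) over the 8 libraries were found, as a description, since all 8 libraries share the split between days. *Neurog1* was closest to *Cdh22* (r = 0.998), *Galnt9* (r = 0.997) and *Nhlh1* (r = 0.997). *Neurod4* was closest to *Chrna4* (r = 0.999), *2610307P16Rik* (r = 0.998) and *Nhlh1* (r = 0.997), and *Nhlh1* to *Srgap3* (r = 0.998), *Tmem229a* (r = 0.998) and *Maml3* (r = 0.997). *Neurod1* was closest to *Snap25* (r = 0.999), *Cacna1b* (r = 0.999) and *St8sia3* (r = 0.998), where *Snap25*, a synaptic protein gene, had a log2 fold change between the genotypes of -0.21 at day 6 (limma adjusted p = 0.552). *Draxin* (r = 0.997) and *Tmem169* (r = 0.996) were among the 3 closest to *Neurog2*, and *Olig2* was closest to *Rars2* (r = 0.992), *Pgbd1* (r = 0.99) and *Zfand4* (r = 0.989). Among the members themselves, *Neurog2* and *Olig2* were the least alike (r = 0.61).

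Markers of other cells were summed in the same libraries. At day 6 the summed pluripotency markers were 393 and 170 FPKM in WT and 1106 and 1027 FPKM in *Pcgf5*-/- cells, and the summed progenitor markers 358 and 369 FPKM in WT and 135 and 148 FPKM in *Pcgf5*-/- cells. The median log2 fold change of the 8 progenitor markers was -1.31, against -0.79 for the 6 members. Since *Zic1* and *Neurog2* passed the minimum only through their WT mean of day 6, these medians are a description. Neuron markers summed to 531 and 374 FPKM in WT and 195 and 176 FPKM in *Pcgf5*-/- cells. By limma 5 of 10 were lower, where 7.05% of all tested genes were lower. At day 0 the neuron markers had summed to 189 and 218 FPKM in WT and 170 and 208 FPKM in *Pcgf5*-/- cells. The sum thus did not rise clearly in the knockout. *Stmn2* alone had day 0 means of 123 FPKM in WT and 91.1 FPKM in the knockout, and it fell by day 6. Feeder fibroblast markers summed to 160 to 558 FPKM at day 0. At day 6 they summed to 20.8 and 33.3 FPKM in WT and to 11.9 and 14.4 FPKM in *Pcgf5*-/- cells. Both knockout libraries lay under both WT libraries for 4 of the 8 markers and above them for 1, against 28.8% and 33.4% of all tested genes. Of these markers limma called 0 of 8 between the genotypes at day 6, with 2 at an unadjusted p under 0.05. Of the 7 tested mesendoderm markers limma called 0 at day 6, with 1 at an unadjusted p under 0.05. Of all 13214 tested genes, 4315 had an unadjusted p under 0.05 between the genotypes at day 6. The part of these shifts in the values of the bHLH genes was not tested.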

How the data were processed

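FPKM values of 8 polyA RNA libraries were analysed. Per the labels and the study's methods, the authors trimmed the reads, removed identical duplicates, aligned the rest to mm9 with TopHat2 (2.0.4) and computed the deposited FPKM per gene with Cufflinks (2.1.1, versions from the submitters' processing notes). The annotation is not given in the sources used here. FPKM is scaled for depth and gene length, and removing duplicates lowers abundant transcripts.

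log2(FPKM + 1) was fitted with limma 3.58.1 in R 4.3.3, with 1 mean for each of 4 conditions, a variance trend, no block and Benjamini-Hochberg adjustment over 13214 genes with a mean over 1 FPKM in some condition. This leaves 4 residual degrees of freedom. The threshold was 0.05. In 5 simulated runs of the day 6 genotype comparison, on 13214 genes with 200 changed, 88.9% of 4-fold and 47.6% of 2-fold changes were called. Of the calls, 4.84% had not been changed. The changes were set on log2(FPKM + 1), and decreases cut short at 0 were not scored, so low genes are less covered. In the data 9.57% of genes were called higher and 7.05% lower, more than were changed here, so the simulated shares may not hold there.

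Files hold no counts. Low FPKM values came in steps of whole fragments: all 39 member values under 30 fragments lay within 0.15 of a whole number, and about 13815000 fragments were implied for the first WT day 0 library. For *Neurod4*, whose lowest value above 0 was already high, fragments are not given. Fragment numbers are estimates and cover counting only.

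All members were named. Related genes were named when past the threshold or at the extremes of their list, a few others (*Snap25*, *Sst*, *Olig3*, *Hes1* and marker genes) for their role, chosen after their values were seen. The members and lists were chosen with earlier results of these data known. Promoters and exons came from GENCODE vM1 on NCBIM37, where the *Neurod1*, *Neurog2* and *Nhlh1* starts differ from the deposited loci. Alternatives were other pseudocounts and minimums, quantile normalization, no trend, replicate blocks, only the 4 libraries compared, and leaving out each library. A few genes are not reported here and are left out of the counts of related genes.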

Additional observations from a re-analysis of the deposited data

Results flagged for a closer look

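Among the 35 tested genes related to the proneural factors, 4 had a genotype effect that differed between day 0 and day 6 by limma's test of that difference. Of all tested genes, 1.75% were called lower in this test. *Hes3* had -2.15 (SE 0.29, adjusted p = 0.0243), *Hes5* -1.64 (SE 0.24, adjusted p = 0.026), *Rnd2* -1.87 (SE 0.29, adjusted p = 0.0289) and *Mfng* -1.63 (SE 0.26, adjusted p = 0.0299), all on the log2 scale as day 6 minus day 0 of *Pcgf5*-/- minus WT. *Hes3* and *Hes5* were near 0 in both genotypes at day 0. *Mfng* and *Rnd2*, a fringe glycosyltransferase gene and a small GTPase gene, had higher means in *Pcgf5*-/- cells at day 0, 2.89 against 1 FPKM and 16.7 against 7.72 FPKM, and lower means at day 6, 4.93 against 8.44 FPKM and 21.4 against 38.5 FPKM. At day 0 the log2 fold change was 0.96 for *Mfng* and 1.03 for *Rnd2* (limma adjusted p = 0.0628 and 0.067), so neither was called. The day 0 difference is thus a large part of their values in this test. Of the 9 bHLH members, none met this test. All 4 calls were lost without the second *Pcgf5*-/- library of day 0, either *Pcgf5*-/- library of day 6, the second WT library of day 0 or the second WT library of day 6, and 3 remained called without each of the other libraries.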

How the results depend on the processing

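The rises of the members kept their direction and stayed within 1.5 times the main count in both genotypes under all alternatives run, at 4 to 7 called in WT and 4 to 6 in *Pcgf5*-/- cells. The genotype calls at day 6 did not. Members called went from 3 to 0 with a pseudocount of 0.1, without an FPKM minimum and with only the 4 libraries compared, and to 1 (*Nhlh1*) with a pseudocount of 0.5 and with a minimum of 5 FPKM, and lay between 0 and 3 when one library was left out. Related genes called at day 6 went from 20 to 11 with a pseudocount of 0.1, to 11 without a minimum and to 11 with only 4 libraries, and lay between 5 and 16 when one library was left out, with 5 without the first *Pcgf5*-/- library of day 6. Related genes called for the difference between days went from 4 to 2 with a pseudocount of 0.1 and to 0 without a minimum, and lay between 0 and 3 when one library was left out. The cause of these changes was not tested. The value of *Neurod1* at day 6, -0.12, lay between -0.44 and 0.19 when one library was left out, above 0 without the second *Pcgf5*-/- library of day 6 (0.09) and without the first WT library (0.19). Its difference between days turned from -0.03 to 0.19 with a pseudocount of 0.1, 0.02 with 0.5, 0.12 with quantile normalization, and 0.03, 0.18 and 0.28 without single libraries (-0.35 to 0.28 over all 8), in each case with an interval that holds 0.

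Replicates of every condition are numbered 1 and 2 in the labels. Replicate differences correlated at 0.39 between the genotypes at day 6 and 0.10 at day 0, and at -0.08 to -0.02 between days. The numbers were therefore not taken to pair the libraries across days. Within day 6 the replicate difference was partly shared by the genotypes, and the main fit, without a block, leaves this in the error. With the replicate number as a block, 3 members were called at day 6 as without it (adjusted p = 0.0459 for *Neurog1*, 0.0437 for *Neurog2* and 0.0307 for *Nhlh1*), and 22 related genes. With a replicate block for each day, chosen after seeing the data, 4 members were called at day 6, *Neurod4* added (adjusted p = 0.0222), 1 related gene at day 0 (*Mfng*) and 11 for the difference between days. With 4 residual degrees of freedom and at most 104 fragments behind *Neurog2* in a library, smaller genotype differences of the low members were not detectable.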
